A study of Mus musculus with 6 samples.

Results

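The respiratory chain genes measured here are the genes of the count table whose symbols name a subunit of complex I, II, III, IV or V, and they number 92 of the 24167 genes in that table. They were chosen by name alone (mitochondrial mt-Nd, mt-Co, mt-Cytb and mt-Atp symbols and the nuclear Nduf, Sdh, Uqcr, Cox4 to Cox8 and Atp5 symbols), and 8 rows with a "-ps" (pseudogene) name were left out. Of the 92 members, 7 are encoded by mitochondrial DNA and 85 by the nucleus, 40 of these in complex I, 4 in complex II, 8 in complex III, 16 in complex IV and 17 in complex V. RNA came from liver metastases of 4T1 cells, a mouse mammary carcinoma line of the triple-negative class, that carried a lentiviral pLKO.1 short hairpin against Zdhhc17 (shZdhhc17, 3 libraries) or a scrambled hairpin (shSCR, 3 libraries). Both cell populations were selected with puromycin, and 500000 cells were given by hydrodynamic tail vein injection to female BALB/c mice aged 6 to 8 weeks. Metastases were cut out under a microscope 10 days later, so every library also holds host cells, and these have no hairpin. It is not stated how many hairpins or clones lie behind each cell population, nor whether the 3 libraries of a group came from separate injection days.

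The respiratory chain passes electrons from NADH (complex I) and succinate (complex II) through complexes III and IV to oxygen and uses the proton gradient this builds to make ATP in complex V. Its subunits come from both genomes: a few core subunits of complexes I, III, IV and V are transcribed inside mitochondria, while all of complex II and the many remaining subunits are transcribed in the nucleus, translated in the cytosol and imported. Hepatocytes are rich in mitochondria, and carcinoma cells vary widely in how much they respire. Some subunits exist as paralogues that replace the general form in low oxygen or in muscle, lung, testis or vessel wall cells.

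Nuclear respiratory chain genes are known as targets of NRF1, of ETS factors such as GABPA, of YY1 and of the oestrogen-related receptors, and 4 promoters are shown here for the motifs they hold. RefSeq promoter windows (build GRCm38.p6) were matched for 67 of the 85 nuclear members. The first 250 bases, those before the RefSeq gene start, are printed 5′ to 3′ on the strand of the gene, with capitals for the NRF1 core GCGCATGC, the ETS core CCGGAAG and the YY1 motif AAGATGGCG on either strand. Cox6a1, the general form of a complex IV subunit, holds an NRF1 core and an ETS core, Sdhb of complex II holds an NRF1 core, Atp5e of complex V holds an ETS core, and Ndufa4, the general paralogue of Ndufa4l2, holds none of the 3.
Cox6a1, chr5:115348959-115349208, minus strand: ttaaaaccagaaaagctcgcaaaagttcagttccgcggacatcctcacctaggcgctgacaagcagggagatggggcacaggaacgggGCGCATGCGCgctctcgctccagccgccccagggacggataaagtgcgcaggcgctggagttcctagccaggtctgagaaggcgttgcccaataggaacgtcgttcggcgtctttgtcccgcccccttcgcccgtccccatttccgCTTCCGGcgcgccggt
Sdhb, chr4:140961021-140961270, plus strand: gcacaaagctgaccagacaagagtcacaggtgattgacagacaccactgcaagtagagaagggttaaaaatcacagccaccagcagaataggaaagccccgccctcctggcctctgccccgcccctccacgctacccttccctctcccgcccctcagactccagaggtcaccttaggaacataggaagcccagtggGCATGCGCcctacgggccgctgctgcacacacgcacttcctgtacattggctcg
Atp5e, chr2:174464102-174464351, minus strand: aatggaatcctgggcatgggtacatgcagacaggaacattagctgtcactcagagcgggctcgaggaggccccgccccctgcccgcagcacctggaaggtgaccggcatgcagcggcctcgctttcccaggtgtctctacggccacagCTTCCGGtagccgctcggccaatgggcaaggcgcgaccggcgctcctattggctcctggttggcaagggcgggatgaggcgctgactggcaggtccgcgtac
Ndufa4, chr6:11907451-11907700, minus strand: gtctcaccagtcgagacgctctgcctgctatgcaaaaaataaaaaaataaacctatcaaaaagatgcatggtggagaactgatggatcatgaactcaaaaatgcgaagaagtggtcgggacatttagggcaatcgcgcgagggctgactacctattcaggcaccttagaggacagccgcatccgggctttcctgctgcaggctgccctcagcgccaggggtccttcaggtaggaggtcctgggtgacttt

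Each motif was counted over the whole window of 300 bases, on both strands. The NRF1 core was found in 10 of 67 members (14.9%), against 3.05% of all 27025 genes with a window. The ETS core was in 17 members (25.4%, against 9.93%) and the YY1 motif in 7 (10.4%, against 1.64%). The oestrogen-related receptor motif AAGGTCA was in 8 members (11.9%, against 5.38%). The CCAAT box was in 43.3% of members and 41.1% of all genes, and the TATA box TATAAA in 8.96% and 15.7%. The hypoxia response core ACGTG was in 17 members (25.4%), against 21.8% of all genes. Ndufa4l2 and Cox4i2 are not among the 67 members, as no window was matched for them. GCGCATGC overlaps its own reverse complement, so the site in Cox6a1 matches on both strands; no match of one of the 3 marked motifs overlapped a match of another in the printed windows. A match describes letters in a window and not a bound site.

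The libraries held 15832837 to 19186615 counts. Zdhhc17, which encodes a palmitoyltransferase, had 25.9, 27.8 and 26.0 counts per 1000000 counts (CPM, scaled by the TMM method) in shZdhhc17 metastases, against 33.7, 32.4 and 34.2 CPM in shSCR metastases, a log2 fold change of -0.33 ± 0.11 (SE; edgeR quasi-likelihood test, Benjamini-Hochberg adjusted p = 0.383). The groups did not overlap, although the host cells in these samples can also express the gene. The hepatocyte gene Alb and the epithelial gene Krt18 were high in every library. Replicate 3 of shSCR stood apart: 10 hepatocyte markers took 2.60% of its counts, against 4.75% to 6.31% in the other 5 libraries, and it sat alone on the first principal component (44.5% of the variance). Replicate 1 of shZdhhc17 sat alone on the second (21.3% of the variance). Replicate 1 of shSCR held the most counts of an 18S ribosomal gene, Rn18s-rs5, at 2.54% of its total, against 0.194% to 0.412% in the others. The hepatocyte list had 9 of 10 log2 fold changes above 0 (median 0.49) with overlapping groups. The carcinoma epithelium list had 9 of 10 below 0 (median -0.49), and its share of counts was 0.322%, 0.209% and 0.164% in shZdhhc17, against 0.314%, 0.237% and 0.341% in shSCR. Neutrophil markers, 9 of 10 above 0, took 0.0690%, 0.0457% and 0.0758% of the counts in shZdhhc17, against 0.0225%, 0.0426% and 0.0269% in shSCR. All 9 tested T and natural killer cell markers were below 0 (median -1.17), and all 7 tested erythroid markers were above 0 (median 1.06). The shares of counts of both lists overlapped between the groups. In bulk tissue, fewer cells of a type and less RNA per cell cannot be told apart.

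None of the 88 members that passed the filter on low counts was past an adjusted p of 0.05 in edgeR, where the share called over all 15567 genes tested was 0%. The 4 members that were not tested, Cox6a2, Cox6c2, Ndufb4c and Ndufs6b, averaged at most 0.550 CPM in either group. Among these Cox6c2 had 0.692, 0.299 and 0.659 CPM in shZdhhc17, against 0.164, 0.157 and 0.167 CPM in shSCR, separate groups that rest on 5 to 11 and 3 counts per library. Cox6a2 had separate groups in the other direction, lower in shZdhhc17, also on few counts. At an unadjusted p under 0.05, 2 members were higher in shZdhhc17 (Uqcrq and Ndufs5), against a background of 4.72% of all genes, and 2 were lower (Ndufa4l2 and Cox4i2), against a background of 6.71%. The 3 libraries of one group all lay above or all below those of the other for 12 tested members: 10 were higher in shZdhhc17 (11.4% of 88, background 7.48%) and 2 lower (2.27%, background 9.62%). DESeq2 called 1.35% of all genes at an adjusted p under 0.05 and 1 member, Ndufa4l2, which was lower in shZdhhc17. No member other than Ndufa4l2 and Cox4i2 had a fitted log2 fold change of more than 0.49 in size.

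The 7 mitochondrially encoded members made up a slightly smaller share of the counts in shZdhhc17 metastases, but the groups overlapped. The 7 measured genes took 2.62%, 2.32% and 2.06% of the counts in shZdhhc17, a mean of 2.33% ± 0.278 (SD, n = 3), and 3.20%, 2.60% and 2.40% in shSCR, a mean of 2.73% ± 0.415 (SD, n = 3). The 95% Wilson interval of each share is at most ± 0.00788 percentage points and covers counting error only, so the spread between libraries far exceeds it. The highest share was in replicate 1 of shSCR and the lowest in replicate 3 of shZdhhc17.

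**Figure D1:**
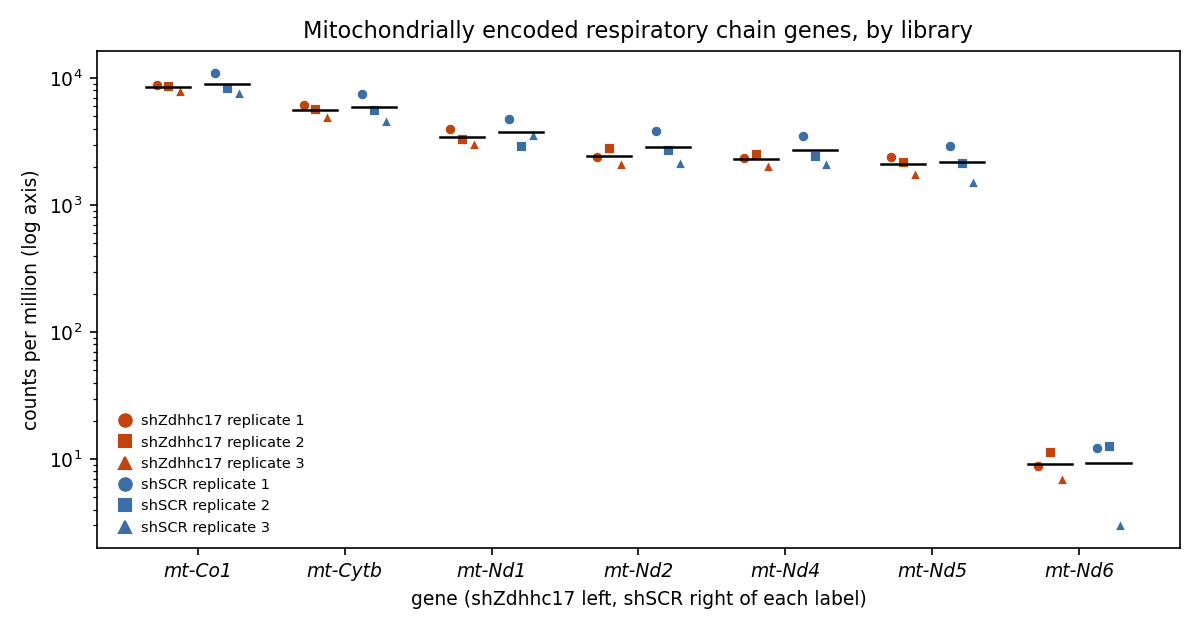
CPM on a log axis for the 7 mitochondrially encoded genes, 1 point per library, shZdhhc17 to the left of shSCR, bars at the mean of 3. The groups overlap for every gene, replicate 1 of shSCR is the highest library for 6 of 7, and mt-Nd6 lies far below the others.

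By gene, mt-Co1, the catalytic core of complex IV, had 8807, 8678 and 7912 CPM in shZdhhc17, against 10908, 8375 and 7676 CPM in shSCR. The complex III subunit mt-Cytb, which oxidises ubiquinol, had 6155, 5758 and 4943 CPM in shZdhhc17, against 7555, 5632 and 4613 CPM in shSCR. In both genes the shSCR libraries spanned a wider range than those of shZdhhc17 and enclosed them. The complex I genes mt-Nd1, mt-Nd2, mt-Nd4 and mt-Nd5 encode subunits of the proton-pumping membrane arm. The largest fitted difference among them was in mt-Nd2, which had 2384, 2830 and 2126 CPM in shZdhhc17, against 3801, 2694 and 2141 CPM in shSCR (log2 fold change -0.23 ± 0.29, SE; edgeR adjusted p = 0.776). Per kilobase of transcript, mt-Co1 was the most abundant, at 5480 CPM per kb in shZdhhc17 and 5817 in shSCR. It was followed by mt-Cytb (4911 and 5186), mt-Nd1 (3597 and 3913), mt-Nd2 (2357 and 2773), mt-Nd4 (1669 and 1956) and mt-Nd5 (1158 and 1207). In shZdhhc17 the ranges over libraries overlapped between mt-Co1 and mt-Cytb and between no other neighbours in that order, whereas in shSCR every gene overlapped the next.

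The fitted log2 fold changes of the 7 genes were all negative, from -0.23 to -0.04, with a median of -0.09 and standard errors of up to 0.49, and no unadjusted p was under 0.05. The median over all genes was 0.0017. The sign rests on replicate 1 of shSCR: without it the median was 0.09 and none of the 7 was negative, while without replicate 3 of shSCR it was -0.27. With the hepatocyte marker mean of each library in the model the median was -0.25. mt-Nd6, the gene transcribed from the light strand of mitochondrial DNA, had 8.87, 11.3 and 6.99 CPM in shZdhhc17, against 12.3, 12.7 and 3.01 CPM in shSCR. The libraries were made from poly(A) RNA with a strand-marking kit, and the human ND6 transcript is known to lack a poly(A) tail. How counting treated strand is not given here, so the split of reads between mt-Nd6 and the opposite strand is uncertain. The remaining mitochondrially encoded subunits, among them those of complex V, are not analysed here, and sums over the 7 genes leave them out.

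The nuclear members leaned the other way by a small margin. Of 81 tested, 65 were above and 16 below 0 on the log2 scale, at a median of 0.11, against 7825 positive and 7742 negative over all genes. With library totals in place of TMM scaling that median was -0.0049, but the median of all genes then moved to -0.13, and relative to all genes the nuclear median was 0.12 under library totals and 0.11 under TMM. Their summed level was 9823, 8861 and 8643 CPM in shZdhhc17, against 9333, 7328 and 7784 CPM in shSCR. Replicate 1 of shSCR lay inside the shZdhhc17 range, and the other 2 shSCR libraries lay below it. Single libraries moved the median: it was 0.05 without replicate 1 of shZdhhc17, 0.03 without replicate 2 of shSCR and 0.22 without replicate 1 of shSCR. In that last fit 17 rather than 4 members had an unadjusted p under 0.05, 15 of them higher. The count over all genes rose as well, to 2885 of 15874 tested, from 1780 of 15567 with all 6 libraries.

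**Figure D2:**
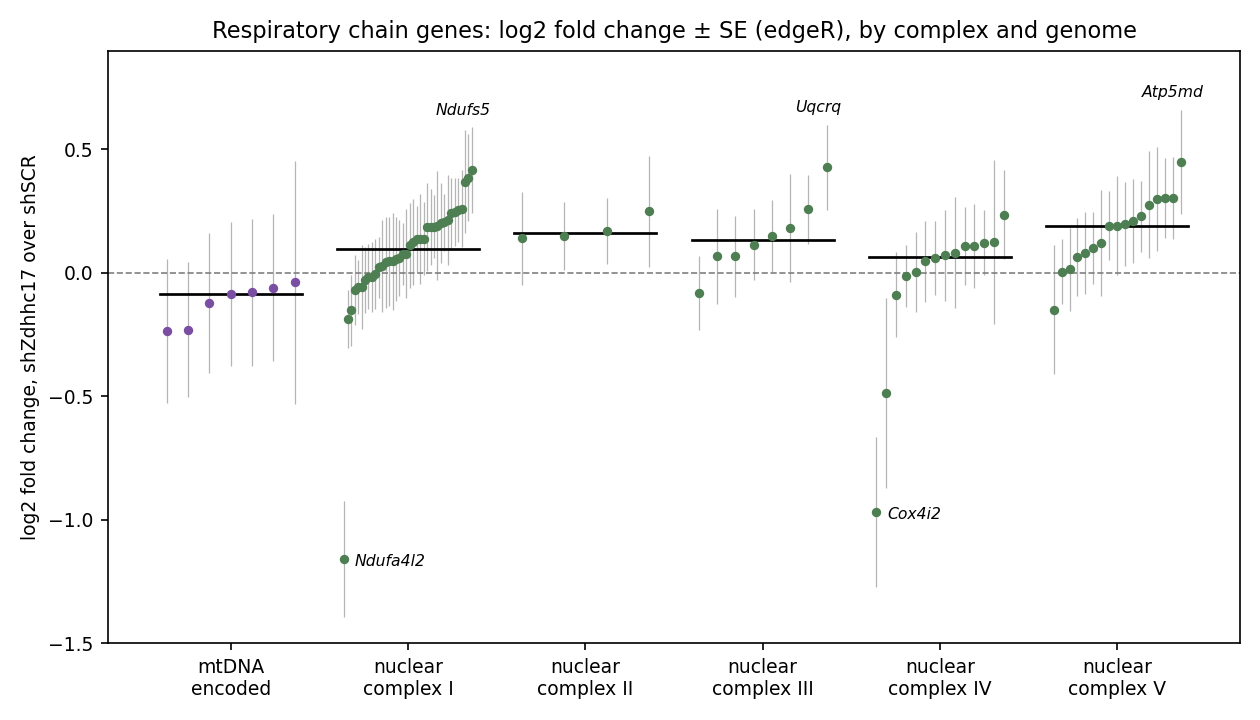
Log2 fold change (shZdhhc17 over shSCR) with its standard error for each of the 88 tested members, grouped by genome and complex, with a black bar at the group median. The 7 mitochondrially encoded genes lie just below 0, the nuclear medians lie between 0.07 and 0.19 (with library totals in place of TMM scaling those of complexes I and IV are below 0, and the others lie between 0.01 and 0.08), and Ndufa4l2 and Cox4i2 lie far below the rest.

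The ratio of the counts of the 7 mitochondrially encoded members to those of the nuclear members was 2.65, 2.85 and 2.53 in shZdhhc17. Its mean there was 2.68 ± 0.164 (SD, n = 3). In shSCR it was 3.59, 3.31 and 2.78, a mean of 3.22 ± 0.409 (SD, n = 3). The lowest shSCR value lay inside the shZdhhc17 range, so the groups overlapped. In shSCR the ratio was lowest in replicate 3, the library with the fewest hepatocyte marker counts, and the part of hepatocyte content in this ratio was not tested.

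Complex I, the NADH dehydrogenase, had 38 nuclear members tested, with 28 positive and 10 negative log2 fold changes and a median of 0.09 (-0.03 with library totals in place of TMM). That median was 0.03 without replicate 1 of shZdhhc17, 0.16 without replicate 2 of shZdhhc17, 0.21 without replicate 1 of shSCR and 0.01 without replicate 2 of shSCR. Their summed level was 2754, 2414 and 2422 CPM in shZdhhc17, against 2631, 2065 and 2335 CPM in shSCR. Complexes were assigned by symbol, so these values include Ndufa4 and its paralogue Ndufa4l2, although Ndufa4 is now regarded as a complex IV subunit. Ndufs5, a small accessory subunit of the membrane arm, had 12.2, 12.1 and 12.7 CPM in shZdhhc17, against 11.0, 8.21 and 8.48 CPM in shSCR. All shZdhhc17 libraries lay above all shSCR libraries, with a log2 fold change of 0.42 ± 0.17 (SE; unadjusted p = 0.0446, edgeR adjusted p = 0.424). Ndufc2, a membrane arm accessory subunit, had 70.0, 53.3 and 57.6 CPM in shZdhhc17, against 51.2, 36.6 and 50.7 CPM in shSCR (log2 fold change 0.39 ± 0.18, adjusted p = 0.457). These groups did not overlap either, by a margin smaller than the spread within each.

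Among the catalytic core, Ndufs1, the largest iron-sulphur subunit, averaged 89.0 ± 4.64 CPM in shZdhhc17, against 74.3 ± 14.2 CPM in shSCR (SD, n = 3 each), and Ndufv1, which carries the flavin that takes electrons from NADH, averaged 95.8 ± 4.56 CPM and 88.7 ± 19.8 CPM in the same order. The groups overlapped for both genes, with replicate 1 of shSCR the highest or second highest library for each gene. The accessory subunits Ndufa7, Ndufa8 and Ndufb6 had separate groups, with log2 fold changes of 0.25, 0.20 and 0.19 and no unadjusted p under 0.05. On the negative side, Ndufv3, an accessory subunit of the NADH-binding module, had 59.9, 63.4 and 57.8 CPM in shZdhhc17, against 73.8, 69.4 and 62.7 CPM in shSCR (log2 fold change -0.19 ± 0.12, edgeR adjusted p = 0.558), and the lowest shSCR library fell within the shZdhhc17 range. Ndufa12 averaged 25.9 CPM in shZdhhc17 and 26.0 CPM in shSCR, and its pseudogene row, Ndufa12-ps, held 21.2, 15.8 and 14.8 CPM in shZdhhc17 and 20.6, 16.3 and 18.8 CPM in shSCR. That is near the 23.5 to 29.4 CPM of Ndufa12 itself, so reads may be split between the copies.

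Complex II, succinate dehydrogenase, has no mitochondrially encoded subunit, and its 4 genes had positive values with a median of 0.16. The median was 0.04 with library totals in place of TMM, 0.31 without replicate 1 of shSCR and 0.08 without replicate 2 of shSCR. Sdha, the flavoprotein that oxidises succinate, had 210, 289 and 246 CPM in shZdhhc17, against 272, 190 and 165 CPM in shSCR (log2 fold change 0.25 ± 0.23, edgeR adjusted p = 0.683). Its groups overlapped widely, and its log2 fold change was -0.0023 once the hepatocyte marker mean was in the model. The iron-sulphur subunit Sdhb averaged 111 ± 11.3 CPM in shZdhhc17 and 100 ± 24.0 CPM in shSCR. The membrane anchors Sdhc (155 ± 10.4 and 140 ± 14.6 CPM) and Sdhd (147 ± 4.31 and 130 ± 15.1 CPM) had log2 fold changes of 0.15 and 0.17 (SD, n = 3 each, shZdhhc17 before shSCR). The sum of the 4 was 646, 702 and 634 CPM in shZdhhc17, against 696, 518 and 524 CPM in shSCR, where replicate 1 again lay among the shZdhhc17 values.

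Complex III, the ubiquinol-cytochrome c reductase, had 8 nuclear members tested, 7 positive and 1 negative, with a median of 0.13. It was 0.01 with library totals in place of TMM, 0.26 without replicate 1 of shSCR and 0.04 without replicate 2 of shSCR. Uqcrq, a small subunit next to cytochrome b, had 242, 214 and 238 CPM in shZdhhc17, against 211, 152 and 153 CPM in shSCR. The groups did not overlap, with the highest shSCR library just under the lowest shZdhhc17 library, and the log2 fold change was 0.43 ± 0.17 (SE; unadjusted p = 0.0407, edgeR adjusted p = 0.418). Uqcrc1, a core protein of the matrix arm, had 195, 188 and 175 CPM in shZdhhc17, against 169, 161 and 137 CPM in shSCR (log2 fold change 0.26 ± 0.14, adjusted p = 0.512), again with separate groups. Its partner core protein Uqcrc2 had 141, 161 and 142 CPM in shZdhhc17, against 176, 116 and 99.1 CPM in shSCR, so the shSCR libraries enclosed those of shZdhhc17. The Rieske iron-sulphur protein gene Uqcrfs1 averaged 112 ± 3.70 CPM in shZdhhc17, against 103 ± 16.2 CPM in shSCR (SD, n = 3 each). Uqcrb was the 1 negative member, at 81.8 ± 7.38 CPM in shZdhhc17 and 86.4 ± 13.6 CPM in shSCR, with a log2 fold change of -0.08 ± 0.15.

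**Figure D3:**
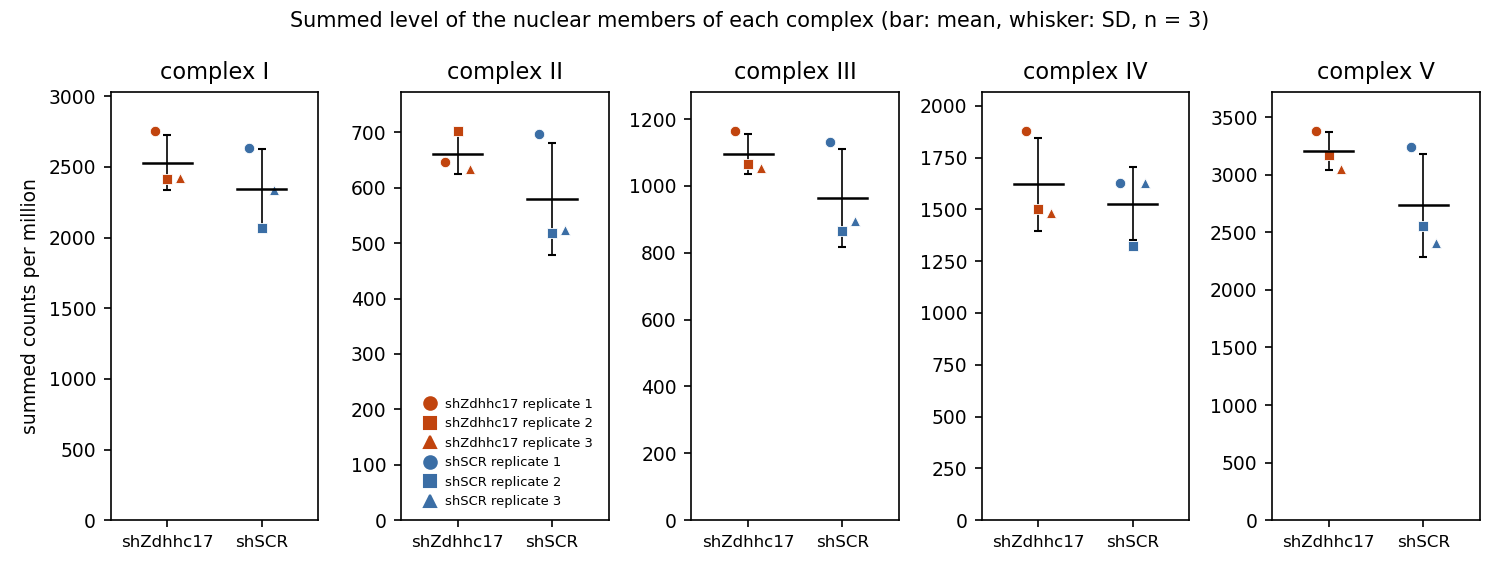
Summed CPM of the nuclear members of each complex, 1 point per library, with the mean and SD of 3 libraries, shZdhhc17 left of shSCR, each axis starting at 0. The groups overlap in all 5 complexes, and replicate 1 of shSCR is the highest shSCR library in each.

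Complex V, the ATP synthase, had a median of 0.19, with 16 of 17 members positive. This was the highest of the 5 complexes over all 6 libraries, but complex II was above it without replicate 1 of shSCR (0.31 against 0.28) and level with it, at 0.13, without replicate 1 of shZdhhc17. The complex V median was 0.08 with library totals in place of TMM and 0.12 without replicate 2 of shSCR. The summed level was 3380, 3174 and 3053 CPM in shZdhhc17, against 3244, 2555 and 2403 CPM in shSCR. The shSCR library with the highest sum lay inside the shZdhhc17 range. The catalytic head genes were the most abundant nuclear members by counts: Atp5b (beta subunit) had 841, 919 and 815 CPM in shZdhhc17, against 858, 714 and 554 CPM in shSCR, and Atp5a1 (alpha subunit) averaged 630 ± 23.3 CPM in shZdhhc17 and 512 ± 120 CPM in shSCR. Their log2 fold changes were 0.28 ± 0.22 and 0.30 ± 0.21. Replicate 3 of shSCR was the lowest library for both. Atp5e, the small epsilon subunit of the central stalk, had 126, 93.5 and 96.3 CPM in shZdhhc17, against 88.5, 74.2 and 93.3 CPM in shSCR (log2 fold change 0.30 ± 0.16, edgeR adjusted p = 0.509), and the groups were barely apart. Atp5md, a small subunit of the membrane part, had the largest positive log2 fold change of the 88 tested members, 0.45 ± 0.21 (adjusted p = 0.464), from 77.5, 49.7 and 49.8 CPM in shZdhhc17, against 49.9, 36.7 and 43.0 CPM in shSCR. Replicate 1 of shZdhhc17 was far above the rest, and the other 2 shZdhhc17 libraries lay just under the highest shSCR library.

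The membrane rotor c subunit is encoded by 3 genes whose mature proteins are alike. Atp5g3 was the most abundant per length, at 311 CPM per kb in shZdhhc17 and 265 in shSCR, with a log2 fold change of 0.23 ± 0.14. Its groups were barely apart, with a lowest shZdhhc17 library of 208.0 CPM and a highest shSCR library of 207.2 CPM. Atp5g1 had a log2 fold change of 0.30 ± 0.17 and Atp5g2 of 0.01 ± 0.13, and neither had separate groups. Atp5l, the g subunit of the membrane part, was the 1 negative member of complex V. It had 7.67, 5.08 and 7.65 CPM in shZdhhc17, against 5.67, 7.79 and 9.15 CPM in shSCR (log2 fold change -0.15 ± 0.26).

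Complex IV, cytochrome c oxidase, had 14 nuclear members tested, 10 positive and 4 negative, with a median of 0.07. Ndufa4 was not counted among these, as complexes were assigned by symbol. That median was -0.05 with library totals in place of TMM and also -0.05 without replicate 1 of shZdhhc17 or without replicate 2 of shSCR, and it lay between 0.10 and 0.14 without any other single library. Cox4i1, the general form of the largest nuclear subunit, was the most abundant nuclear member per length, at 472 CPM per kb in shZdhhc17 and 401 in shSCR. It had 420, 318 and 331 CPM in shZdhhc17, against 312, 265 and 331 CPM in shSCR (log2 fold change 0.24 ± 0.18, edgeR adjusted p = 0.626). Cox6a1 had 206, 186 and 181 CPM in shZdhhc17, against 187, 166 and 173 CPM in shSCR (0.12 ± 0.13). Cox5b, Cox7a2l, which helps complexes III and IV associate, and Cox5a had log2 fold changes within 0.05 of 0, with standard errors of 0.13 to 0.16. Cox8a, a small subunit, had 185, 159 and 145 CPM in shZdhhc17, against 177, 143 and 200 CPM in shSCR.

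The 2 members that departed from the rest were alternative forms of a subunit. Ndufa4l2, a paralogue of Ndufa4 that is known as a target of the hypoxia-inducible factor HIF-1 in human and mouse cells, had 13.1, 13.6 and 9.96 CPM in shZdhhc17, against 20.6, 25.5 and 35.9 CPM in shSCR. Those values rest on 151 to 227 counts per shZdhhc17 library and 378 to 643 per shSCR library, and the groups were well apart. The log2 fold change was -1.16 ± 0.23 (SE; unadjusted p = 0.00134, edgeR adjusted p = 0.307). DESeq2 gave -1.14 with an adjusted p of 0.00534, and the authors' deposited table gives -1.14 with a q of 0.00602. With edgeR the value ran from -1.32 to -0.92 when each library was left out in turn. DESeq2 kept the call in 5 of those 6 fits, and without replicate 3 of shZdhhc17 its adjusted p was 0.186. With the hepatocyte marker mean in the model the log2 fold change was -0.87 (edgeR adjusted p = 0.335). Ndufa4 itself, which is now regarded as a subunit of complex IV in mammals, had 211, 163 and 159 CPM in shZdhhc17, against 176, 114 and 123 CPM in shSCR (0.37 ± 0.21, edgeR adjusted p = 0.519), and its groups overlapped. Per kilobase, the level of Ndufa4l2 was 13.1 CPM in shZdhhc17, against 29.2 in shSCR, far below Ndufa4 at 335 and 259.

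**Figure D4:**
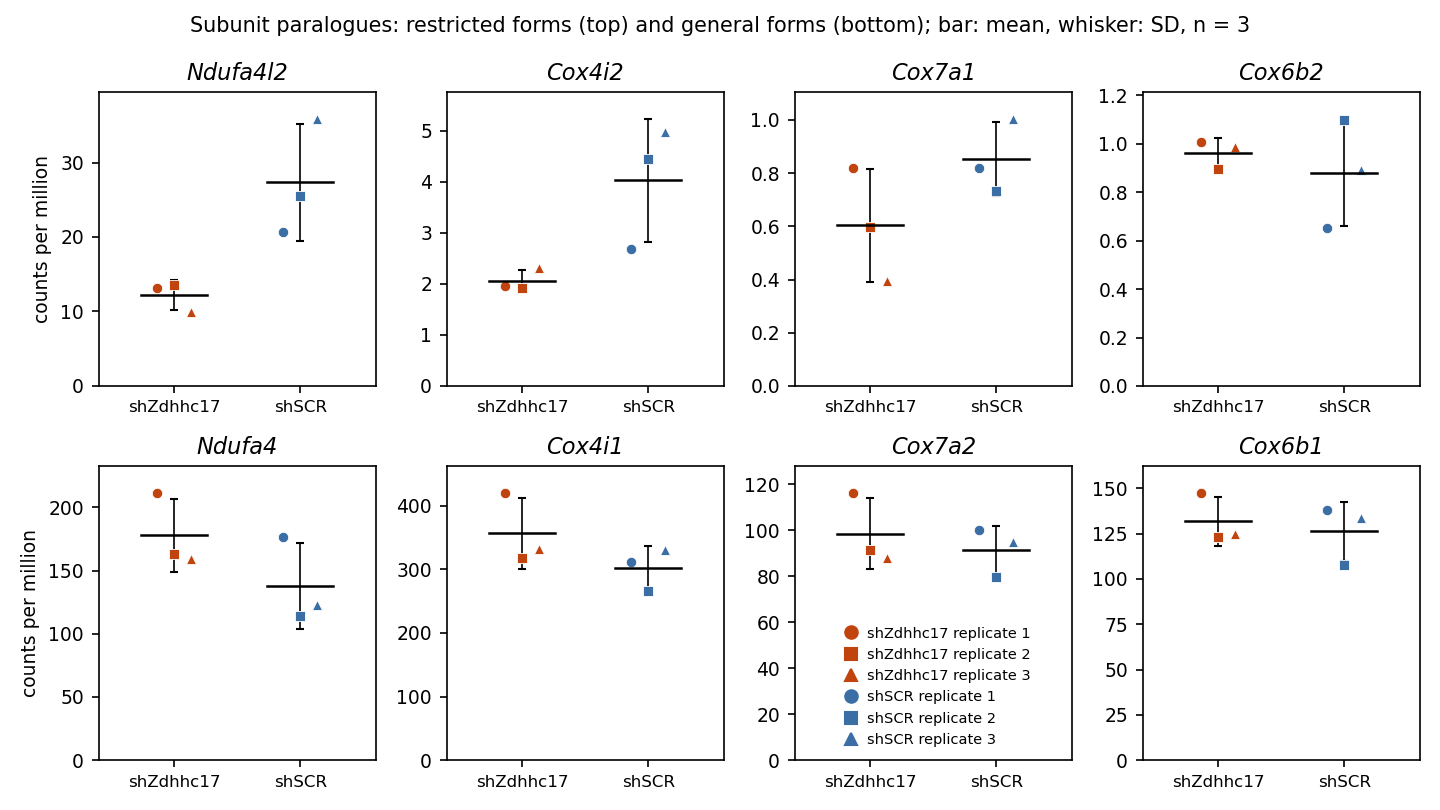
CPM for 4 restricted subunit forms (top row) and their general paralogues (bottom row), 1 point per library with the mean and SD of 3, shZdhhc17 left of shSCR, each axis starting at 0. Ndufa4l2 and Cox4i2 are lower in every shZdhhc17 library than in any shSCR library, while the groups of their general forms overlap.

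Cox4i2, the form of Cox4 known for lung and vessel wall cells and for raising its level in low oxygen in human cells, had 1.95, 1.91 and 2.31 CPM in shZdhhc17, against 2.67, 4.45 and 4.97 CPM in shSCR. Its counts were low, at 31 to 35 in shZdhhc17 and 49 to 89 in shSCR, and the groups did not overlap. The log2 fold change was -0.97 ± 0.30 (SE; unadjusted p = 0.0136, edgeR adjusted p = 0.362), DESeq2 gave an adjusted p of 0.186, and the authors' deposited table gives a q of 0.201. Without single libraries the value lay between -1.19 and -0.79. Cox7a1, the heart and muscle form of Cox7a, had 0.604 ± 0.211 CPM in shZdhhc17 and 0.851 ± 0.139 CPM in shSCR (log2 fold change -0.49 ± 0.38), against 98.5 ± 15.4 and 91.4 ± 10.6 CPM for the general form Cox7a2 (SD, n = 3 each). Cox6a2, the muscle form of Cox6a, was under the filter, at 0.0629, 0.0597 and 0.198 CPM in shZdhhc17 and 0.218, 0.366 and 0.837 CPM in shSCR. Its groups were separate, on 1 to 3 counts per shZdhhc17 library and 4 to 15 per shSCR library. Cox6b2, the testis form of Cox6b, differed less, at 0.964 ± 0.0595 CPM in shZdhhc17 and 0.882 ± 0.222 CPM in shSCR.

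Other genes were measured beside Ndufa4l2 and Cox4i2, in lists added after these values were seen. Of 10 genes known as HIF targets, 9 had values below 0 on the log2 scale (median -0.71), and 7 had separate, lower groups (70.0%, background 9.62%). None passed an adjusted p of 0.05 in edgeR, and 4 of the 10 did in DESeq2, where the share over all genes was 1.35%. All 4 were lower: P4ha1 (DESeq2 adjusted p = 0.0013), Vegfa (0.0025), Ndrg1 (0.032) and Car9 (0.038). Vegfa, the vascular growth factor, had 191, 249 and 206 CPM in shZdhhc17, against 336, 394 and 438 CPM in shSCR. Car9, a carbonic anhydrase induced by low oxygen, had 86.5, 74.5 and 47.9 CPM in shZdhhc17, against 123, 129 and 130 CPM in shSCR. Ldha was the 1 positive gene, at 0.20 ± 0.22. The mean log2(CPM + 1) of the list was 7.30, 7.15 and 6.77 in shZdhhc17 and 7.69, 7.58 and 7.73 in shSCR, and the groups did not overlap. Of 9 tested pericyte and mural cell markers, 5 were positive and 4 negative, with a median of 0.0014 and a mean log2(CPM + 1) of 3.95 to 4.09 in all 6 libraries. Of these 9 genes 3 had separate, lower groups (33.3%, background 9.62%) and an unadjusted p under 0.05, Pdgfrb with a log2 fold change of -0.57, Notch3 of -0.67 and Mcam of -0.42, and none passed an adjusted p of 0.05 in edgeR or DESeq2. Rgs5 had a log2 fold change of 0.57, and Higd1b was near 0 in every library. Among cardiac and skeletal muscle markers, 1 of 10, Tnnt2, passed the filter, at 90.2, 38.2 and 27.3 CPM in shZdhhc17 and 86.1, 47.0 and 93.3 CPM in shSCR. The mean log2(CPM + 1) of that list was 0.645 to 0.876 in shZdhhc17 and 0.904 to 1.51 in shSCR, which did not overlap. Replicate 3 of shSCR had the highest level of several markers under the filter. Tnni3, a cardiac troponin, had 0.0629, 0.299 and 0.132 CPM in shZdhhc17, against 0.382, 0.941 and 3.01 CPM in shSCR, and Mb, myoglobin, had 0.314, 0.179 and 0.198 CPM in shZdhhc17, against 0.327, 0.680 and 1.40 CPM in shSCR. The groups of both were separate. Ckm and Acta1 reached 1.90 and 1.84 CPM in that library and were below 1 CPM in the other 5, and Myh6, Myh7, Myl2 and Actc1 were below 1 CPM in all 6. The brown fat list lay at 1.96 to 2.09 in shZdhhc17 and 1.79 to 2.18 in shSCR, and its defining gene Ucp1 was at most 0.198 CPM. Of its 5 tested genes 3 were positive and 2 negative. Fabp4, the most abundant, had separate, lower groups, at 51.4, 34.9 and 38.2 CPM in shZdhhc17, against 58.0, 64.4 and 59.4 CPM in shSCR. The share of counts of the list did not overlap either, with means of 0.00669% in shZdhhc17 and 0.00893% in shSCR. The part of oxygen supply or cell makeup in the 2 differences was not tested.

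**Figure D5:**
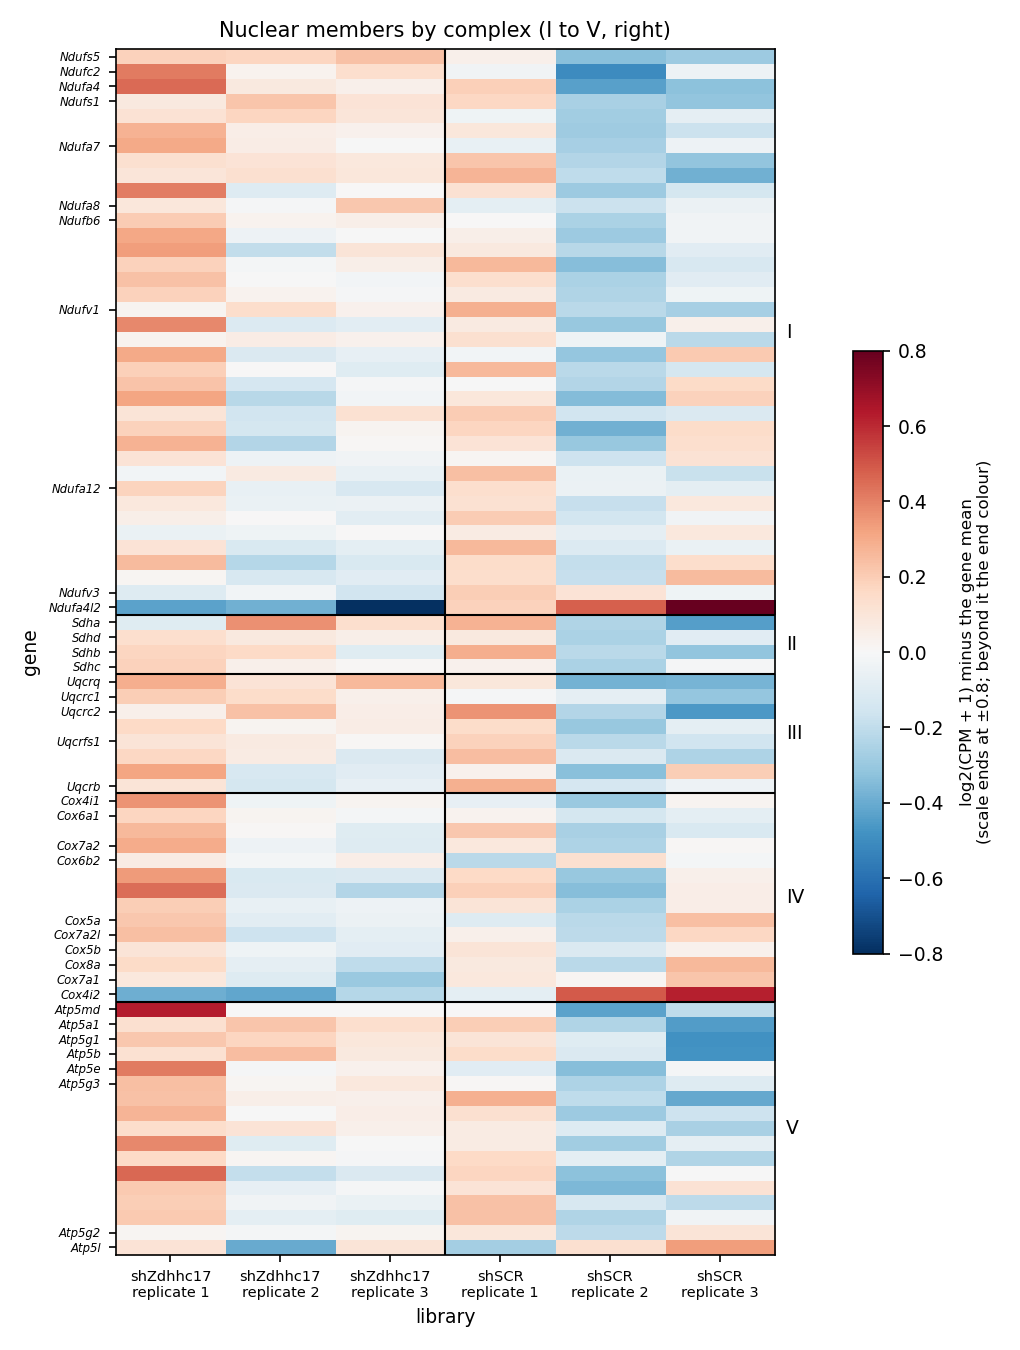
Each row is 1 of the 81 tested nuclear members, each column a library (shZdhhc17 on the left), and the colour is log2(CPM + 1) minus the mean of that gene, rows ordered within a complex by the difference between groups and labelled where the text names the gene. Replicate 1 of shZdhhc17 and replicate 1 of shSCR are above the gene mean for most rows, replicate 2 of shSCR is below it, and replicate 3 of shSCR is low for most complex II, III and V genes and high for many complex IV genes.

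The nuclear members did not vary alike across libraries, as the map of deviations by gene shows. Within shSCR, replicate 3 was the lowest of the 3 libraries for 20 of 81 nuclear members, the highest for 21 and in the middle for 40. It was the lowest for 7 of 17 complex V genes and for none of 14 in complex IV, and the highest for 6 of 14 complex IV genes and for none of 4 in complex II. Atp5a1, Atp5b, Atp5g1, Sdha and Uqcrc2 were among the genes at their lowest there, and Cox8a and Cox5a among those at their highest. This is also the library with the lowest hepatocyte marker share, whose part in these levels was not tested.

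Genes that serve the chain without being subunits of it were looked at in 7 lists, and no gene of any list passed an adjusted p of 0.05 in edgeR or DESeq2. Of 21 genes of the tricarboxylic acid cycle and pyruvate entry, 19 were positive, with a median of 0.22, and 3 had an unadjusted p under 0.05 in the higher direction (14.3%, background 4.72%). Ogdh, part of the oxoglutarate dehydrogenase complex, had 140, 172 and 166 CPM in shZdhhc17, against 106, 129 and 118 CPM in shSCR (log2 fold change 0.43 ± 0.15, adjusted p = 0.378). Pcx, pyruvate carboxylase, which is abundant in hepatocytes, had 372, 651 and 605 CPM in shZdhhc17, against 358, 295 and 144 CPM in shSCR, with its lowest value in the shSCR library with the fewest hepatocyte marker counts. The mitochondrial pyruvate carrier gene Mpc1 had a log2 fold change of 0.54 ± 0.22.

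Assembly factors of complex I numbered 19, with 14 positive and a median of 0.12. Nubpl, which delivers iron-sulphur clusters to complex I, had 10.9, 11.7 and 10.7 CPM in shZdhhc17, against 10.0, 6.01 and 6.08 CPM in shSCR (log2 fold change 0.59 ± 0.24, edgeR adjusted p = 0.414). Of 33 tested assembly factors of the other complexes 25 were positive, with a median of 0.09. Coa6 and Coa7, both factors for complex IV, had log2 fold changes of 0.46 ± 0.18 and 0.49 ± 0.19, and Higd1a, a small protein of the inner membrane induced by low oxygen, had -0.46 ± 0.18, with 42.7, 32.1 and 28.4 CPM in shZdhhc17 and 51.5, 40.7 and 50.1 CPM in shSCR. The mitochondrial ribosome, which translates the mitochondrially encoded subunits, had 58 positive genes of 77 and a median of 0.09. Mrpl12, which also binds the mitochondrial RNA polymerase in human cells, had 137, 109 and 111 CPM in shZdhhc17, against 92.2, 74.6 and 98.7 CPM in shSCR (0.42 ± 0.16, adjusted p = 0.405).

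The 28 tested genes of mitochondrial DNA transcription, replication and RNA processing had 12 positive and 16 negative values and a median of -0.02. Lrpprc, which stabilises mitochondrial mRNAs, had 74.8, 88.1 and 86.3 CPM in shZdhhc17, against 80.8, 65.7 and 53.9 CPM in shSCR. Of 18 genes for electron carriers, coenzyme Q synthesis and ADP/ATP exchange 10 were positive, with a median of 0.03; Coq8b, a coenzyme Q synthesis factor, had 25.7, 22.5 and 24.5 CPM in shZdhhc17 and 17.4, 19.4 and 19.5 CPM in shSCR (0.37 ± 0.13, edgeR adjusted p = 0.390). The 18 transcriptional regulators of mitochondrial biogenesis were split evenly, 9 positive and 9 negative, with a median of 0.03. Ppara, a fatty acid sensor most active in hepatocytes, had 14.3, 56.1 and 46.0 CPM in shZdhhc17, against 21.0, 16.6 and 7.31 CPM in shSCR (log2 fold change 1.37 ± 0.54, adjusted p = 0.412). Its shZdhhc17 replicate 1 lay within the shSCR range.

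The authors' deposited table of gene set scores gave the hallmark set of oxidative phosphorylation a normalized enrichment score of 1.54 with a q of 0.190, where the contrast column of the table sets shZdhhc17 over shSCR. The column description deposited with it names another contrast, so the sign rests on the table itself, whose leading genes for the hypoxia set, scored negative, include Vegfa and P4ha1. The same table gave 1.39 (q = 0.373) for the Reactome set of respiratory electron transport, and -0.887 (q = 0.925) for the KEGG set and -1.12 (q = 0.681) for the WikiPathways set of oxidative phosphorylation. Sets with nearly the same name thus had scores of both signs, and no q was under 0.05. The hallmark hypoxia set had a score of -1.23 (q = 0.451) in the authors' deposited table.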

How the data were processed

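RNA was measured by poly(A) sequencing with a strand-marking kit in 6 libraries, 3 per group. The authors deposited whole counts per gene without normalization, and, in a table of their own comparison, log2 fold changes and p-values with q-values from DESeq2; their gene set table holds enrichment scores and q-values, per the file headers. Per the submitters' processing notes, the tools include STAR 2.6.1, HTSeq, FastQC 0.11.8 and DESeq2 1.34.0, and the build is mm39 (GRCm39). How counting treated strand is not given here. Counts were tested here with edgeR 4.0.16 (R 4.3.3; TMM scaling, filterByExpr, robust quasi-likelihood fit, Benjamini-Hochberg adjustment over all 15567 genes tested, threshold 0.05). The scripts were tested on simulated data. CPM were divided by the length of annotated principal transcripts to compare genes, with the GENCODE vM21 annotation used for lengths only. DESeq2 1.42.0 and limma 3.58.1 (voom) were alternatives, with other scalings, filters, a hepatocyte marker covariate, a replicate block and the omission of each library. Counts ranged from 15832837 to 19186615 per library.

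Genes named are the mitochondrially encoded members, the members of each complex with the smallest p and the highest level, and the paralogue forms. From each pathway list some of the genes with the smallest p are named, and from some marker lists the most abundant gene. Members named beyond that rule (Ndufs1, Ndufv1, Ndufa7, Ndufa8, Ndufa12, Ndufb6, Sdhb, Sdhc, Uqcrc2, Uqcrfs1, Cox5a, Cox5b, Atp5a1) and Myh6, Myh7, Myl2, Actc1, Tnni3, Mb, Ckm, Acta1, P4ha1, Ndrg1, Mcam and Ucp1 were named after their values were seen. The members and lists were chosen with earlier results of these data known. The labels give 3 mice per group, and where they do not tie a library to 1 mouse p-values cover no more than the spread of the samples, which may be technical.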

Additional observations from a re-analysis of the deposited data

How the results depend on the processing

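edgeR called 0 genes and 0 members, with 1780 genes and 4 members at an unadjusted p under 0.05. It called 3 genes with no filter on low counts, 2 with the hepatocyte marker mean as a covariate, and 0 to 1 when each library was left out, the 1 without replicate 3 of shSCR; no member was called in any of these. DESeq2 called 210 genes and 1 member (Ndufa4l2). DESeq2 without single libraries, an alternative chosen after seeing the data, called 0 to 3 members, the 3 being Ndufa4l2, Cox4i2 and Uqcrq without replicate 1 of shSCR. Without that library DESeq2 had 2828 of 15874 genes at an unadjusted p under 0.05, against 1844 of 15567 with all 6. Same-numbered libraries deviated from their group means with correlations of -0.031, 0.25 and -0.031, so the replicate numbers were not read as pairs. With a replicate block edgeR called 0 genes and 0 members and gave mt-Nd6 0.15. In that fit 1623 of 15567 genes and 6 members had an unadjusted p under 0.05. Library totals alone turned the medians of the nuclear members (-0.0049), complex I (-0.025) and complex IV (-0.053), and Cox6a1 (-0.0013), Cox6b1 (-0.062), Cox6b2 (-0.012), Cox7a2 (-0.012), Cox7a2l (-0.12), Cox7b (-0.0062), Atp5g2 (-0.12) and Top2a (-0.032). limma voom gave mt-Nd6 0.19 and Cox7a2l -0.00013. The hepatocyte covariate gave Sdha -0.0023, Atp5l 0.13, Cox8a 0.027 and Alb -0.060. Leaving out single libraries also turned signs: the mitochondrially encoded median ran from -0.27 to 0.089, mt-Nd1 from -0.27 to 0.089, mt-Nd2 from -0.41 to 0.019, mt-Nd4 from -0.38 to 0.0091, mt-Nd5 from -0.27 to 0.20, mt-Nd6 from -0.46 to 0.25, mt-Cytb from -0.23 to 0.14 and mt-Co1 from -0.19 to 0.079. The range was -0.050 to 0.14 for the complex IV median, -0.042 to 0.13 for Cox6b1, -0.047 to 0.31 for Cox6b2, -0.017 to 0.19 for Cox7a2, -0.12 to 0.088 for Cox7a2l, -0.21 to 0.026 for Cox8a, -0.32 to 0.025 for Atp5l, -0.093 to 0.059 for Atp5g2, -0.17 to 0.056 for Uqcrb and -0.052 to 0.20 for Top2a. The nuclear median ran from 0.034 to 0.22. The cause of these moves was not tested. Of 72 single values followed, 50 kept their sign in every edgeR, limma and DESeq2 fit over all 6 libraries and in every edgeR fit without 1 library. Cox4i2 rests on 31 to 89 counts per library.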
